A study of Homo sapiens with 6 samples.

Results

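The NDUF genes encode the nuclear subunits and dedicated assembly factors of mitochondrial complex I. They were measured here by RNA sequencing in K562, a human erythroid-like line from chronic myeloid leukaemia in blast crisis, with either SF3B1-K700E or wild-type SF3B1. Members were all protein-coding genes named NDUFA, NDUFAB, NDUFAF, NDUFB, NDUFC, NDUFS or NDUFV and a number, and 46 of the 62111 gene IDs in the deposited tables met this rule. Of these, 37 are subunits of complex I, 8 are NDUFAF assembly factors, and NDUFA4 is a subunit of complex IV that kept its older name. The subunits were grouped by the part of the complex they belong to, with 8 in the N module, 8 in the Q module and its junction with the membrane, 9 in the proximal membrane arm and 12 in the distal membrane arm. NDUFA4L2 and NDUFC2-KCTD14, whose names do not end in a number after the family letters alone, and 63 NDUF pseudogenes were not members.

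Complex I is the entry point of the respiratory chain. Its N module takes electrons from NADH, its Q module passes them to ubiquinone, and its membrane arm uses the energy to pump protons. It is built stepwise from modules with the help of factors that are not part of the finished enzyme, and its remaining core subunits are encoded by the mitochondrial genome. In erythroid cells, mitochondria also supply haem and iron-sulfur clusters.

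The series holds 3 libraries labelled SF3B1-K700E and 3 labelled SF3B1-wt (called WT here), all from K562 cells with no further treatment named. SF3B1 is the branch point binding subunit of the U2 snRNP, and K700E is its most frequent substitution in blood cancers. The labels do not say how the mutant cells were made, whether they are a clone, or whether replicates came from separate cultures, so every p reflects no more than how much these 6 libraries vary. Values were TPM, in which the reads of a gene are divided by its length and scaled to a sum of 1000000 in each library, so levels can be compared between genes. In bulk RNA, fewer cells of a type and less RNA per cell cannot be told apart.

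Recovered totals were 111.6, 123.0 and 126.5 (each times 1000000) read ends in K700E replicates 1, 2 and 3, against 104.6, 133.6 and 136.6 in WT replicates 1, 2 and 3. SF3B1 itself stood at 138 ± 21.5 TPM in K700E and 119 ± 22.6 TPM in WT (SD, n = 3 each). All 8 erythroid markers passed the filter on low values in these libraries, with summed levels between 3436 and 4654 TPM in K700E and between 2458 and 4307 TPM in WT. Of the lymphoid markers, 1 of 5 passed, with sums of 3.57 to 4.99 TPM in K700E and 3.95 to 4.38 TPM in WT. Of the myeloid markers 2 of 4 passed, led by LYZ, with sums of 67.2 to 184 TPM in K700E and 118 to 138 TPM in WT. Of the stromal markers 2 of 4 passed, led by VIM, with sums of 617 to 1153 TPM in K700E and 600.1 to 624 TPM in WT. WT replicate 3 had values between those of both other WT libraries in 75.9% of tested genes, while each other library lay between its 2 partners in 10.2% to 46.3% of them.

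The NDUF genes spanned a wide range of levels although the complex they form holds its subunits in fixed numbers. The 37 subunits had mean levels over the 6 libraries between 0.0982 and 842 TPM, with a median of 76.9 TPM. NDUFA1 and NDUFS5, small accessory subunits of the proximal arm, stood above all other members, and together made up 30.9% of the summed level of the 46 members. NDUFA1 had 866, 974 and 898 TPM in K700E and 837, 694 and 782 TPM in WT. NDUFS5 had 1049, 941 and 838 TPM in K700E and 793, 621 and 691 TPM in WT. At the other end, NDUFA7, an accessory subunit of the Q module, was near 0 in every library. It had 0.0772, 0.0338 and 0.131 TPM in K700E and 0.198, 0.119 and 0.0298 TPM in WT, which correspond to between 1 and 5 read ends per library, and no fold is given for it. It was the only member under the filter of a mean of 1 TPM, which left 45 members to test. The next lowest were NDUFA9 at 2.70 TPM, NDUFS7 at 2.83 TPM, NDUFA11 at 3.68 TPM and NDUFV2 at 4.66 TPM. NDUFS7 and NDUFV2 are core subunits that carry iron-sulfur clusters.

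**Figure D1:**
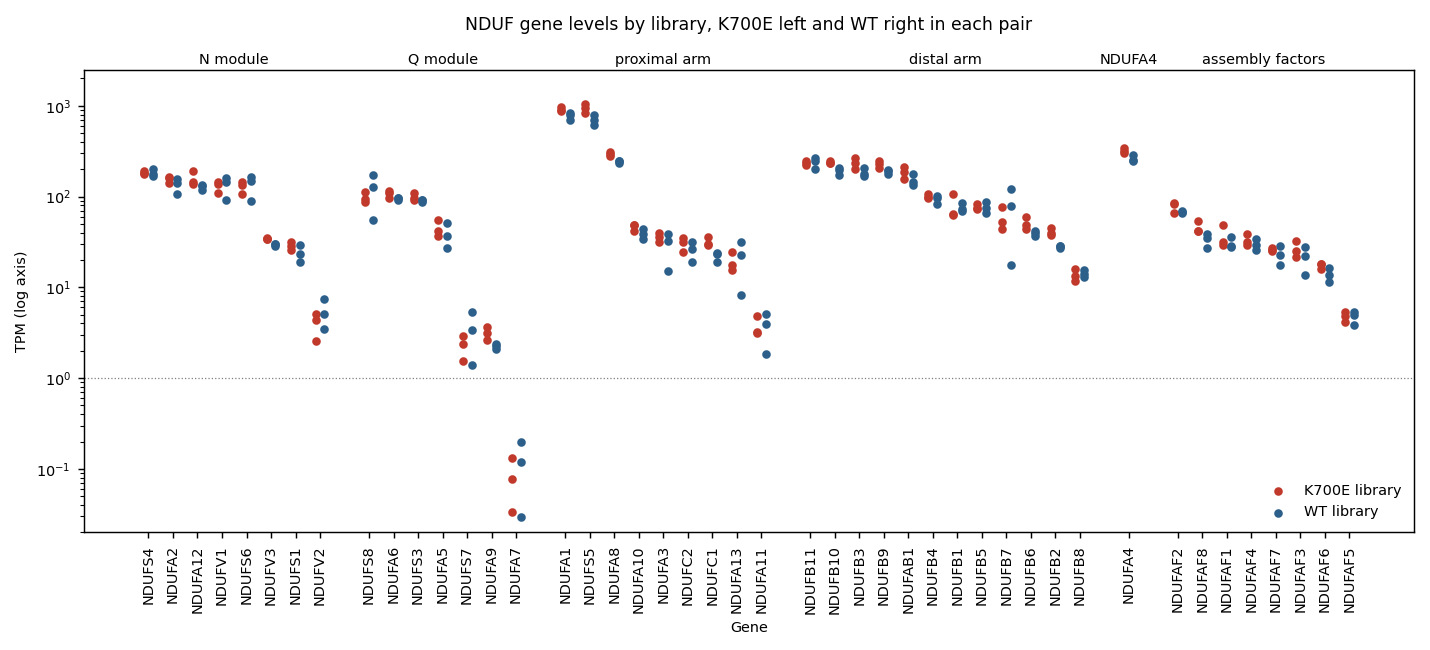
TPM (log axis) of 45 of the 46 NDUF genes in each library, K700E in red on the left and WT in blue on the right of each pair, ordered by module and by mean level, with the filter at 1 TPM dotted. Levels ran from 842 TPM for NDUFA1 to 0.0982 TPM for NDUFA7 (means over 6 libraries), and within a gene the libraries lay far closer together than the genes did, except in genes such as NDUFB7 and NDUFS8, where the WT libraries spread widely.

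The members listed lowest often shared exons with another gene in the deposited gene models (GRCh37). NDUFA7 (ENSG00000267855, chromosome 19, 8376168 to 8386259, minus strand) shared 452 of its 580 exon bases (77.9%) with ENSG00000167774, a longer protein-coding gene on the same strand that was itself listed at a mean of 0.0245 TPM. NDUFB8, an accessory subunit of the distal arm at 13.9 TPM, shared 65.4% of its exon bases with a same-strand gene listed at 0. NDUFS7 shared 56.4% with antisense genes, NDUFB2 shared 50.2%, nearly all with genes on the opposite strand, and NDUFV2 shared 42.6% with a same-strand transcript listed at 0. By contrast, 29 of the 46 members shared no exon base at all, and NDUFA1 and NDUFS5 were among them. Across the 46 members, mean level and the percentage of shared exon bases had a Spearman correlation of -0.56, and mean level and gene length one of -0.51. Both are descriptions over genes, which are not independent and share gene models and libraries. How reads in shared exons were assigned, and whether strand was used, is not given in the sources used here. The levels of these genes are therefore uncertain, and the part of shared exons in their low levels was not tested. Copies elsewhere in the genome are a further limit for NDUFAF2, for which 36.3% of the 50-base words of its transcript (GENCODE release 29) also occur in a processed pseudogene, and for NDUFV2, for which 25.9% do. NDUFA1 and NDUFB11 share no exon base in the deposited gene models. Read on either strand, however, 40.7% of the words of NDUFA1 occur in RNF113A and 43.1% of those of NDUFB11 in RBM10.

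**Figure D2:**
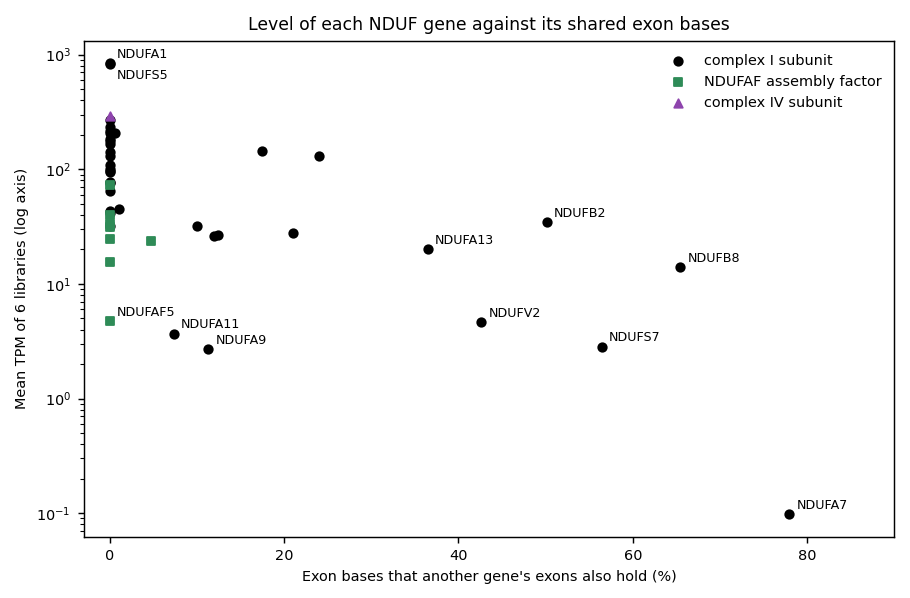
Mean TPM over 6 libraries (log axis) of each NDUF gene against the percentage of its exon bases that also lie in exons of another gene on either strand, with complex I subunits as circles, assembly factors as squares and NDUFA4 as a triangle. Of the 46 genes 29 sit at 0% on the horizontal axis, and NDUFA7, the most shared at 77.9%, is the lowest at 0.0982 TPM.

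**Figure D3:**
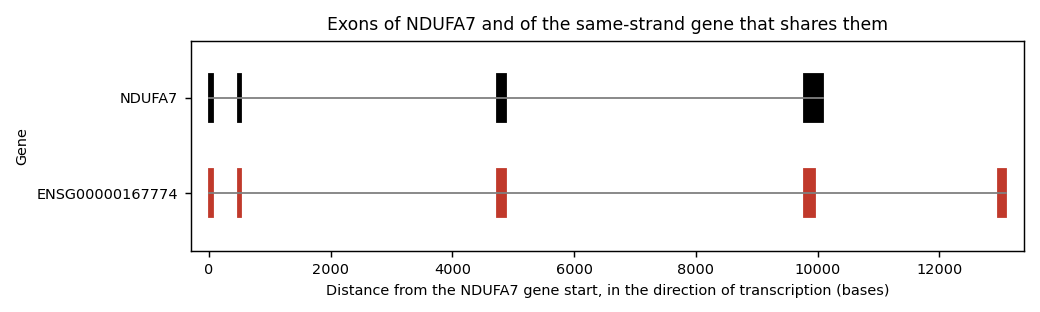
Exons of NDUFA7 (black) and of ENSG00000167774 (red) as bars against the distance in bases from the NDUFA7 gene start, in the direction of transcription and to scale. All 4 NDUFA7 exons overlap exons of the longer gene, and the part of NDUFA7 that is not shared, 128 bases, lies at its 3' end.

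The 8 assembly factors had lower levels than most subunits, with means between 4.75 and 72.6 TPM and a median of 27.9 TPM. Of the 37 subunits, 20 had a higher mean level than NDUFAF2, the highest assembly factor, and 5 had a lower one than NDUFAF5, the lowest. The summed level of the assembly factors equalled 5.53%, 4.90% and 4.96% of that of the subunits in K700E replicates 1, 2 and 3, and 5.15%, 4.84% and 4.97% in WT replicates 1, 2 and 3. The groups overlapped, with no separation of the genotypes in this balance.

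The promoters of the NDUF genes were searched for motifs of 4 regulators of respiratory genes. RefSeq promoters (GRCh38.p14, 250 bases before to 50 bases after the start) were found for 39 members. Both strands were searched for the 10-letter motif of NRF1, which reads GCGCA, any base and GCGC, for CCGGAAG, the core bound by GABPA and other ETS factors, for AAGATGG, the core bound by YY1, and for AAGGTCA, the site bound by the orphan receptor ERRA. The YY1 core was found in 10 of 39 promoters (25.6%), against 7.11% of the 27305 genes in the table, and the NRF1 motif in 7 (17.9%), against 6.98%. The ETS core was found in 7 (17.9%), against 12.2%, and the ERRA site in 4 (10.3%), against 4.80%. At least 1 of the motifs was found in 21 of 39 promoters (53.8%), against 26.8% of all genes. The 27305 genes were all those with a listed promoter. They were not matched to the members in coding status, GC content or distance from the start to the start codon. The shares are therefore set side by side only, and an excess in the members was not tested. The motifs do not overlap in their letters within the promoters shown. A match is a description of letters and not of binding. The transcripts of the 4 regulators were present in both genotypes, and in each of them the libraries of the genotypes overlapped. NRF1 had 16.6, 14.4 and 14.8 TPM in K700E and 14.3, 16.8 and 15.7 TPM in WT (log2 difference -0.03). YY1 had 70.1, 50.2 and 44.5 TPM in K700E and 61.4, 55.6 and 56.6 TPM in WT (-0.10). GABPA had 22.8, 18.8 and 15.8 TPM in K700E and 19.04, 11.7 and 13.7 TPM in WT (0.36), and ESRRA, which encodes ERRA, had 20.5, 24.9 and 27.1 TPM in K700E and 10.8, 30.3 and 23.2 TPM in WT (0.27). None of the 4 passed the test.

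The promoters of NDUFA12, NDUFA3 and NDUFA9 held both the NRF1 and the YY1 motif, and they are shown with each match in capitals, 5' to 3' on the strand of the gene, beside that of NDUFB2, the member with the smallest p in the comparison of genotypes, which held none of the 4 motifs. In all 3 a YY1 core lay just after the start, on the strand of the gene. It lay 14 bases after the start in NDUFA12, 21 in NDUFA3 and 10 in NDUFA9. NDUFA3 held a second YY1 core on the opposite strand, at -191 from the start. The core holds the letters ATG, and whether the matches after the start are start codons was not tested. The promoters lie at chr12:95003648-95003947 on the minus strand for NDUFA12, and on the plus strand at chr19:54102605-54102904 for NDUFA3, chr12:4648864-4649163 for NDUFA9 and chr7:140696458-140696757 for NDUFB2.
NDUFA12: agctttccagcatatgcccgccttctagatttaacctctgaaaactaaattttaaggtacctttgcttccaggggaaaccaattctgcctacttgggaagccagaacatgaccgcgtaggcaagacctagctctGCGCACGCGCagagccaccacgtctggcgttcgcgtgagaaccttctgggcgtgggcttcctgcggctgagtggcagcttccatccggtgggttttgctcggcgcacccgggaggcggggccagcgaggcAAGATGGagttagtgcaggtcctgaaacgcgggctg
NDUFA3: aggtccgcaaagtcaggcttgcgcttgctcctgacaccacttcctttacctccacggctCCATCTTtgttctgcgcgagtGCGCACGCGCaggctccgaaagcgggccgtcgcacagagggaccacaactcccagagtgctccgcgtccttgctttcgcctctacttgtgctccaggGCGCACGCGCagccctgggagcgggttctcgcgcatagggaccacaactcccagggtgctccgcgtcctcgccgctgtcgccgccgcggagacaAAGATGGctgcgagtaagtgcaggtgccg
NDUFA9: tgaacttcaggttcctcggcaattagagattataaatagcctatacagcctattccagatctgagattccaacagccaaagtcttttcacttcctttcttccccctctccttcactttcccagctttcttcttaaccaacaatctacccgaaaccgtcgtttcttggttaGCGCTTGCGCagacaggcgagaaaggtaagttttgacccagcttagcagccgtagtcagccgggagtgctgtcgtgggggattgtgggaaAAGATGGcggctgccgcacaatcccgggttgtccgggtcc
NDUFB2: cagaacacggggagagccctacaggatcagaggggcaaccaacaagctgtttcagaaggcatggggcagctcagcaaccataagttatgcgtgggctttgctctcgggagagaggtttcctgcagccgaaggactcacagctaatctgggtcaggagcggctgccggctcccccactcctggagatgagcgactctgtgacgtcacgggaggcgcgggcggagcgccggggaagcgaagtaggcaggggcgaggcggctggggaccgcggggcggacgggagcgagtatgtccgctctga

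The comparison of K700E with WT asked whether the nuclear genes of complex I differed in level between the genotypes. None of the 45 tested members passed the threshold in limma (adjusted p under 0.05 over 15493 genes), while 1.38% of all tested genes did, 1.15% higher and 0.232% lower in K700E. At an unadjusted limma p under 0.05 there were 8 members, all with the higher mean in K700E, against 16.5% of all genes, and 2 with either TMM or median-ratio factors. The count was 1, 2 and 6 without K700E replicates 1, 2 and 3, and 15, 4 and 2 without WT replicates 1, 2 and 3. The share of all genes under these alternatives is not given here, so these counts are not read as a result about the members. With all libraries and TPM as deposited, the 8 members were NDUFB2, NDUFC1, NDUFS5, NDUFB10, NDUFA8, NDUFAF8, NDUFA4 and NDUFB3. The smallest adjusted p in limma was 0.123 for NDUFB2. Run on the recovered reads, limma-voom called no member either.

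Most members nevertheless had somewhat higher TPM in K700E, as most genes did. The log2 difference, K700E minus WT on the log2(TPM + 1) scale, was above 0 in 39 of 45 members, against 69.3% of tested genes. It was above 0 in 26 of 45 members with TMM and 27 of 45 with median-ratio factors. With both of these factors the median of all genes was itself below 0, so 69.3% is not their background. As deposited, the median log2 difference was 0.22 over the members, against 0.13 over all genes. Relative to the median gene, 29 of 45 members lay above it, and the members' median was 0.09. The 3 K700E libraries all lay above the 3 WT libraries in 13 of 45 members, against 19% of all genes, and all below in none, against 4.99%. The count depended on the scaling, since it was 4 of 45 (9.27% of all genes) with median-ratio factors and 4 of 45 (8.89%) with TMM factors, with NDUFA8, NDUFA9, NDUFB2 and NDUFC1 in both. All K700E libraries lay below all WT libraries in 0 of 45 members (11.8% of all genes) with median-ratio factors and in 1 of 45 (12.8%), NDUFS4, with TMM factors. The median of all genes was -0.04 with median-ratio and -0.05 with TMM factors, so member differences are read against the median gene.

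The summed level of the 37 subunits was 5452, 5215 and 4982 TPM in K700E and 4430, 4495 and 4532 TPM in WT, 1.16 times as high. These sums did not overlap as deposited, but with TMM factors they did, at 4786, 4972 and 4846 in K700E and 4629, 5050 and 4742 in WT, 1.01 times as high, and with median-ratio factors they also overlapped, at 1.02 times.

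**Figure D4:**
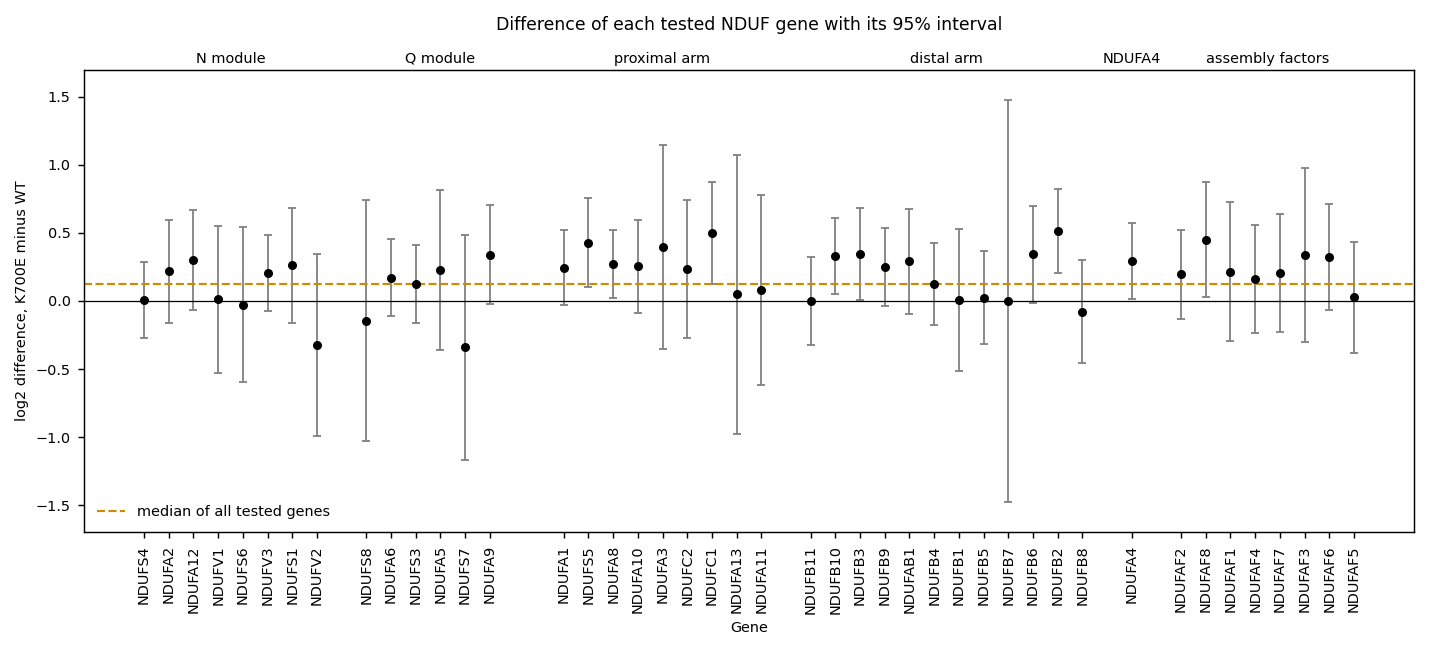
Log2 difference, K700E minus WT on the log2(TPM + 1) scale, of 44 of the 45 tested NDUF genes with the 95% interval of the limma fit, ordered by module and by mean level, with the median of all tested genes (0.13) dashed. The points lie between -0.34 (NDUFS7) and 0.51 (NDUFB2), and the interval of NDUFB7 is the widest, from -1.48 to 1.48.

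In the N module, which oxidises NADH, none of the 8 genes passed the test and the median log2 difference was 0.11, under that of all genes. NDUFA12, an accessory subunit that takes the place of the assembly factor NDUFAF2 late in assembly, had 191, 146 and 136 TPM in K700E and 133, 129.6 and 118 TPM in WT. These libraries did not overlap as deposited, and the log2 difference was 0.30 (SE 0.16, limma adjusted p = 0.395). NDUFV3, an accessory subunit of the flavoprotein part, varied little, with 35.2, 34.0 and 34.3 TPM in K700E and 28.7, 30.2 and 30.3 TPM in WT, and a difference of 0.21 (SE 0.12, limma adjusted p = 0.442). NDUFS1, the largest subunit and carrier of several iron-sulfur clusters, overlapped between genotypes at 31.2, 28.7 and 25.7 TPM in K700E and 29.1, 19.2 and 23.4 TPM in WT. NDUFS4, a small accessory subunit and a frequent site of mutation in Leigh syndrome, had the highest level of the module and stood at 184 ± 8.21 TPM in K700E and 183 ± 16.0 TPM in WT (SD, n = 3 each). The 95% interval of its log2 difference was -0.27 to 0.29. NDUFV2, the lowest of the module, had 5.03, 4.39 and 2.59 TPM in K700E and 7.37, 3.49 and 5.07 TPM in WT, which overlapped.

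In the Q module, where electrons reach ubiquinone, none of the 7 tested genes passed either, and the median was 0.17. NDUFA9, an accessory subunit at the junction with the membrane arm, had 3.64, 3.13 and 2.66 TPM in K700E and 2.28, 2.11 and 2.38 TPM in WT. Its libraries did not overlap under any of the 3 scalings, and the difference was 0.34 (SE 0.16, limma adjusted p = 0.330). NDUFA9 is low, at a mean of 2.70 TPM, and shares 11.3% of its exon bases with same-strand genes. NDUFA6, an accessory subunit of the LYR family, had 114, 96.6 and 111 TPM in K700E and 92.1, 96.8 and 95.7 TPM in WT. The genotypes overlapped, with a 95% interval of -0.11 to 0.45.

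The proximal membrane arm had the highest module median, 0.26, and none of its 9 genes passed. All 9 had a log2 difference above 0 as deposited, as did 69.3% of all tested genes and all 8 assembly factors. Of the 9 genes, 7 lay above the median gene. NDUFC1, a small single-span accessory subunit (ENSG00000109390, chromosome 4, 140211071 to 140223705, minus strand), had 36.1, 29.6 and 29.2 TPM in K700E and 23.3, 18.8 and 24.2 TPM in WT. All K700E libraries lay above all WT libraries, and the difference was 0.50 (SE 0.16, limma adjusted p = 0.188), while NDUFC1 shares 12.4% of its exon bases with NAA15 on the opposite strand. For NDUFS5, whose values are given above, the difference was 0.43 (SE 0.14, limma adjusted p = 0.199). NDUFA8, an accessory subunit of the intermembrane space face, had 308, 291 and 282 TPM in K700E and 247, 234 and 247 TPM in WT, with a difference of 0.27 (SE 0.11, limma adjusted p = 0.262). NDUFA1 also had all K700E libraries above all WT libraries as deposited, but overlapped under both other scalings. NDUFA11, the lowest of this arm, had 3.20, 3.14 and 4.84 TPM in K700E and 1.86, 5.11 and 3.91 TPM in WT.

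In the distal membrane arm, the end of the proton pump, the median was 0.19 and none of the 12 genes passed. NDUFB2, a small accessory subunit (ENSG00000090266, chromosome 7, 140390577 to 140422590, plus strand), had 45.5, 39.5 and 37.5 TPM in K700E and 28.5, 28.9 and 27.3 TPM in WT. Its K700E libraries stood above its WT libraries under all 3 scalings, and the difference of 0.51 (SE 0.13, 95% interval 0.20 to 0.82) was the largest of the 45 members. Its adjusted p of 0.123 in limma did not pass, and over the alternatives it ranged from 0.081 to 0.475, its highest value being that without WT replicate 3. Its level is uncertain in that 50.2% of its exon bases are shared with other genes. NDUFB10, another accessory subunit of this arm, had 249, 234 and 234 TPM in K700E and 172, 205 and 194 TPM in WT, with a difference of 0.33 (SE 0.12, limma adjusted p = 0.234). NDUFB3 had 267, 234 and 203 TPM in K700E and 205, 170.3 and 177 TPM in WT, so the lowest K700E library lay under the highest WT library. NDUFB11, an X-linked subunit and the highest of this arm, stood at 235 ± 11.6 TPM in K700E and 237 ± 32.9 TPM in WT (SD, n = 3 each), with an interval of -0.32 to 0.32. NDUFB8, the lowest, had 15.8, 11.6 and 13.3 TPM in K700E and 15.7, 14.1 and 13.1 TPM in WT.

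The 7 nuclear core subunits, which carry the flavin and the iron-sulfur clusters, had a median log2 difference of 0.01. As deposited, all K700E libraries lay above all WT libraries in 0 of these 7 genes (19% of all genes) and below in 0 (4.99%). Their summed level was 544, 551 and 549 TPM in K700E and 453, 598 and 560 TPM in WT. The 29 tested accessory subunits had a median of 0.24, and in 11 of them all K700E libraries lay above all WT libraries as deposited, where 19% of all genes did. With TMM or median-ratio factors 4 of the 29 did, where 8.89% or 9.27% of all genes did, and with TMM factors the accessory subunit NDUFS4 lay below. These are descriptions side by side and the difference between core and accessory subunits was not tested. The longest transcript has at least 55% GC in the core subunits NDUFV1, NDUFS8, NDUFS7 and NDUFS3. Among the 29 accessory subunits it does in NDUFA3, NDUFA11, NDUFA13, NDUFB7, NDUFB10 and NDUFB11. The WT coefficient of variation was 27.5%, 49.8%, 58.2% and 2.61% in these core subunits, in this order. In these accessory subunits it ran from 8.87% (NDUFB10) to 71.9% (NDUFB7). The part of GC content or of this spread was not tested. NDUFA4, the complex IV subunit, had 339, 319.7 and 298 TPM in K700E and 285, 243 and 254 TPM in WT, with a difference of 0.29 (SE 0.12, limma adjusted p = 0.284).

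The NDUFAF assembly factors did not pass the test in any of 8 genes, and their median log2 difference, 0.21, stood beside 0.21 for the 36 tested subunits. Relative to the median gene, the median was 0.08 for the assembly factors and 0.09 for the subunits. Without WT replicate 1 it was 0.146 for the assembly factors and 0.026 for the subunits, and without WT replicate 2 it was 0.052 and 0.084, so how close the classes lay depended on single libraries. The difference between the classes was not tested. NDUFAF8, which stabilises NDUFAF5, was the factor with the largest difference, with 54.2, 41.5 and 42.1 TPM in K700E and 27.1, 38.6 and 34.6 TPM in WT. Its libraries did not overlap as deposited, and the difference was 0.45 (SE 0.18, limma adjusted p = 0.276). NDUFAF5, which hydroxylates an arginine of NDUFS7, had 5.38, 4.86 and 4.13 TPM in K700E and 5.32, 3.81 and 4.97 TPM in WT, an overlap. NDUFAF7, a methyltransferase that acts early in assembly, had 25.2, 27.2 and 25.7 TPM in K700E and 28.2, 17.5 and 22.8 TPM in WT.

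The remaining factors also overlapped between the genotypes. NDUFAF3 and NDUFAF4 act together on the early Q module. NDUFAF3 had 24.9, 21.6 and 32.6 TPM in K700E and 13.6, 27.7 and 22.4 TPM in WT. NDUFAF4 had 38.8, 31.4 and 29.2 TPM in K700E and 34.0, 25.6 and 29.1 TPM in WT. In neither did the genotypes separate. NDUFAF1, a member of the complex that builds the early membrane arm, had 49.0, 29.0 and 31.7 TPM in K700E, where replicate 1 stood apart, and 35.7, 27.6 and 28.8 TPM in WT. NDUFAF2, a paralogue of NDUFA12 that binds late intermediates, had 85.7, 81.9 and 65.9 TPM in K700E and 68.0, 65.4 and 68.8 TPM in WT. NDUFAF6, needed for the early step that includes MT-ND1, had 18.1, 18.1 and 15.8 TPM in K700E and 16.2, 11.5 and 13.6 TPM in WT, with a difference of 0.32 (SE 0.17, limma adjusted p = 0.387).

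A group of GC-rich members varied more between WT libraries than between genotypes, and they are named here after their values were seen. NDUFB7, an accessory subunit of the distal arm, had 43.9, 52.0 and 75.9 TPM in K700E and 17.8, 122 and 78.2 TPM in WT. NDUFS8, a core iron-sulfur subunit, had 87.7, 93.7 and 111 TPM in K700E and 55.6, 173 and 128 TPM in WT. NDUFA13, also known as GRIM-19, had 15.6, 17.5 and 24.7 TPM in K700E and 8.30, 31.7 and 22.4 TPM in WT. In each of them WT replicate 1 was the lowest and WT replicate 2 the highest of all 6 libraries. The 12 tested members whose longest transcript has a GC content of at least 55% had WT replicate 1 as the lowest WT library in 12 of 12, and their median coefficient of variation was 15.2% in K700E and 38.0% in WT. For the 33 members under 55% it was 11.2% in K700E and 11.5% in WT. The median standard error of the log2 difference was 0.29 in the GC-rich members and 0.16 in the others, so a change of a given size was less detectable in the GC-rich members. The difference between WT replicates 2 and 1 followed GC content across the 45 members with a Spearman correlation of 0.71, and across all 15129 genes with a GC value with the same rounded value, 0.71. Between K700E replicates 3 and 1 it was 0.58 over the members and 0.46 over all genes. These are descriptions within single pairs of libraries, whose points share those libraries. With a correction for GC content the smallest adjusted p of a member was 0.085, for NDUFB2, and no member passed.

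**Figure D5:**
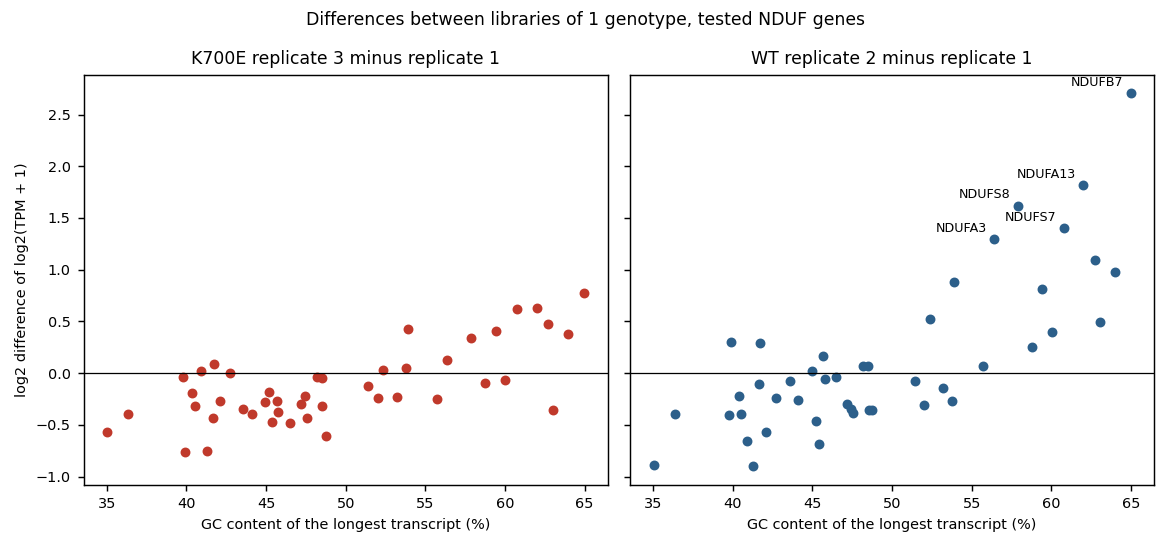
Difference of log2(TPM + 1) between libraries of the same genotype against the GC content of the longest transcript (%) for the 45 tested NDUF genes, K700E replicate 3 minus replicate 1 on the left and WT replicate 2 minus replicate 1 on the right. GC-rich genes are higher in WT replicate 2, with a median difference of 1.04 in the 12 genes at 55% GC or more and of -0.26 in the other 33, against 0.36 and -0.27 between the K700E libraries.

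Genes that act with the NDUF genes were set beside them. Of 11 other complex I assembly factors none passed, with a median log2 difference of 0.18, and the smallest p was that of TMEM186, a factor of the early membrane arm, with 41.5, 40.4 and 37.1 TPM in K700E and 30.9, 31.6 and 30.9 TPM in WT (limma adjusted p = 0.236). Of the 7 MT-ND genes, the mitochondrially encoded subunits, none passed, and their summed level was 36332, 45856 and 42275 TPM in K700E and 46690, 33540 and 38524 TPM in WT, an overlap. MT-ND1, the subunit next to the Q module, had 2054, 2955 and 2922 TPM in K700E and 3341, 3825 and 3347 TPM in WT. All its K700E libraries lay below all WT libraries, and the difference was -0.42 (SE 0.16, limma adjusted p = 0.258).

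In the other respiratory complexes no gene passed the test. Over 4 complex II genes the median log2 difference was 0.23, over 9 of complex III 0.25, over 10 of complex IV 0.09 and over 15 of complex V 0.13, so the NDUF median of 0.22 lay within their range. The smallest adjusted p of each were 0.412 for SDHC in complex II, 0.150 for UQCR11 in complex III, 0.296 for COX6A1 in complex IV and 0.114 for ATP5MC1, which encodes the proton-carrying ring subunit of complex V, all from limma. ATP5MC1 had 505, 386 and 394 TPM in K700E and 299.9, 274 and 291 TPM in WT. Among 14 tested genes of iron-sulfur cluster supply, which serve the core subunits among others, 1 fell and 13 did not pass, and the median was -0.03. Among 9 tested regulators of respiratory genes none passed, with a median of 0.28, and TFB2M, a factor of mitochondrial transcription, had the smallest adjusted p, 0.229 in limma.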

How the data were processed

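RNA of 6 K562 libraries (3 K700E, 3 WT by the genotype label) was measured. The authors deposited TPM per gene in 1 table per genotype. Per the submitters' processing notes, cutadapt 2.10, TopHat2 2.1, featureCounts 2.0.1, DESeq2 and GRCh37 (hg19) were named with no role. Per the file headers, the WT column names have the form that STAR gives its sorted files, and that table is laid out as featureCounts writes it. No source used here gives the aligner or strand setting behind the K700E table, and any difference between tables cannot be told apart from genotype.

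Both tables held the same 62111 gene IDs, of which 58604 (94.4%) matched a symbol. TPM multiplied by gene length gave whole multiples of 1 step in 100% of values above 0 (tolerance 0.01), so each library was scaled alone with 1 set of lengths, and this allowed testing across tables. The totals count read ends, since genes with 2 outnumbered genes with 1. GC content and 50-base words came from GENCODE release 29 and were joined by gene ID. Coordinates are GRCh37 as deposited, except promoters.

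The 15493 genes whose mean level reached 1 TPM entered limma 3.58.1 (R 4.3.3) as log2(TPM + 1) values (empirical Bayes with a trend, genotype only, two-sided, Benjamini-Hochberg, threshold 0.05). Folds on this scale understate changes of low genes. An exact permutation p of 3 against 3 cannot go under 0.1. Members, lists and alternatives were chosen with earlier results of these data known. Named were, per member group, the 3 smallest p and the highest and lowest level, all NDUFAF genes, and from each other list the genes that passed or else the smallest p. A gene of the iron-sulfur list that passed and 1 member, counted in the totals, are not reported here by name. The fit was tested on simulated data in which each gene was drawn independently, without shifts that genes share within a library. The alternatives were other pseudocounts (0.1 and 5), filters (none and 5 TPM), median-ratio and TMM scaling, no trend, gene length and GC corrections, limma-voom on recovered reads, each library left out, and a replicate block. Chosen after seeing the data were the GC correction with a library left out, and subunits with little exon sharing. Tables were joined in pandas 2.3.3 (Python 3.11.15, with numpy 2.4.6), ranks compared in scipy 1.17.1, and figures drawn in matplotlib 3.10.9.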

Additional observations from a re-analysis of the deposited data

How the results depend on the processing

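No subunit and no assembly factor was called under any of the alternatives that were run, and among 1030 values of single members over the alternatives 11 moved by more than 1 SD. The number of genes called over all tested genes, 214 here, was 482 with the GC correction, 381 with limma-voom on the recovered reads (100% of values whole), 92 with a filter of 5 TPM and 0 with no filter. Leaving out single libraries gave 0 to 182 calls, with 0 once WT replicate 3 was dropped, 98 without K700E replicate 1, 84 without K700E replicate 2, 129 without K700E replicate 3 and 125 without WT replicate 2. With the GC correction and without WT replicate 3 there were 0 calls. The cause of these shifts was not tested. The calls split 178 higher and 36 lower in K700E as deposited, 104 and 46 with TMM factors, 111 and 48 with median-ratio factors, 119 and 47 with the gene length correction and 282 and 200 with the GC correction. The median log2 difference of complex I subunits relative to the median gene, 0.09, was 0.18 with no filter, where the median gene itself stood at 0.03, and 0.00705 with the GC correction and without WT replicate 1. It ranged from 0.026 (without WT replicate 1) to 0.092 with single libraries left out, and that of the assembly factors between 0.052 and 0.146. It was 0.08 for subunits with little exon sharing. Members above the median gene numbered 26 to 33 over the alternatives. Same-numbered libraries correlated in their deviations at 0.28, -0.19 and 0.30. These 3 values cannot decide whether the numbers pair the samples, and the labels do not say. With the replicate block 67 genes were called, against 214 without it, and no member was among them. The 1 to 5 read ends per library of NDUFA7 carry a large counting error.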

Other observations

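NDUFA4L2, a hypoxia-inducible relative of NDUFA4 outside the naming rule, had 2.95, 2.96 and 5.96 TPM in K700E and 2.69, 9.86 and 6.76 TPM in WT, a spread within each genotype as wide as that between them. NDUFV2P1, the only NDUF pseudogene past the filter, had 3.95, 3.76 and 2.47 TPM in K700E and 3.22, 2.19 and 2.32 TPM in WT. It lay below NDUFV2 in every library, with means of 2.99 TPM for NDUFV2P1 and 4.66 TPM for NDUFV2. Of the 63 NDUF pseudogenes, 36 were listed at 0 in all libraries.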
